A study of Mus musculus with 6 samples.

Results

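Genomic imprinting leaves a small set of genes active from only 1 parental copy, and 10 of them that act on fetal growth are described here in the hearts of mice that lack PKM1. They were chosen by symbol from the deposited count table: *Igf2*, *H19*, *Igf2r*, *Dlk1*, *Meg3*, *Cdkn1c*, *Grb10*, *Peg3*, *Mest* and *Plagl1*, 10 of the 13809 genes listed there. All 10 were found and all 10 passed the filter on low counts, with at least 1386 counts in every library. The hearts came from embryos at E18.5, shortly before birth, with 3 libraries from wildtype (WT) and 3 from *Pkm1*-knockout (KO) embryos. KO embryos were homozygous for a small CRISPR/Cas9 deletion in the exon of *Pkm* that only the PKM1 splice form uses, present in every cell from fertilization, and no other allele or treatment is given for either group. The tissue is heart in the labels and ventricle in the study's account, and the edited zygotes were from BDF1 mice, a cross of C57BL/6J and DBA/2. Total RNA was depleted of ribosomal RNA, and reads were counted per gene. Counts per gene do not separate the parental copies, so the imprint itself was not measured.

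The copy a gene uses is fixed by DNA methylation laid down in the egg or the sperm and kept in the body of the embryo. Many genes expressed from the father's copy promote fetal growth, and many expressed from the mother's copy restrain it. Their RNA is abundant in fetal organs and declines after birth as growth slows. Of the 10 genes, *Igf2*, *Dlk1*, *Peg3*, *Mest* and *Plagl1* are expressed from the paternal copy, and *H19*, *Igf2r*, *Meg3*, *Cdkn1c* and *Grb10* from the maternal copy in most tissues.

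By their places in the mouse genome (build GRCm38), 4 of the 10 lie on chromosome 7. *H19* (142575529 to 142578143, minus strand) and *Igf2* (142650766 to 142666816, minus strand) are 72.6 kb apart and share enhancers. *Cdkn1c* (143458339 to 143461050, minus strand) lies 880.2 kb beyond *H19* in the neighbouring *Kcnq1* domain, and *Peg3* (6703892 to 6730431, minus strand) is far from them. Chromosome 12 holds *Dlk1* (109452823 to 109463336) and *Meg3* (109541001 to 109571726), both on the plus strand and 77.7 kb apart. The others are each the only member on their chromosome: *Mest* on chromosome 6 (30723547 to 30748465, plus strand), *Plagl1* on 10 (13060504 to 13131694, plus strand), *Grb10* on 11 (11930508 to 12038683, minus strand) and *Igf2r* on 17 (12682406 to 12769664, minus strand). *H19* and *Meg3* are annotated as long noncoding RNAs and the other 8 as protein-coding genes.

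Several of these transcripts are also precursors of microRNAs, short RNAs that pair with target messages mainly through their seed, bases 2 to 8. The mature microRNAs inside *H19*, *Igf2* and *Mest* are shown because they are cut from RNA of these hosts. *Mir675* lies within an exon of *H19*, and *Mir483* and *Mir335* lie within introns of *Igf2* and *Mest*. The sequences are from RefSeq (GRCm38.p6), written 5′ to 3′, with the seed in capitals.
miR-675-5p: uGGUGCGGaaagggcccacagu
miR-675-3p: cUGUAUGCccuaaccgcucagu
miR-483-5p: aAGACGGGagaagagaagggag
miR-483-3p: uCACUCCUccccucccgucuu
miR-335-5p: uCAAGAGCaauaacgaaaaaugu
miR-335-3p: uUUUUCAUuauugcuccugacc
No seed among them is shared with another of them, or with any other of the 1679 mature mouse microRNAs in the RefSeq table. The libraries counted host genes, so the mature microRNAs were not measured.

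The study considered factors of the NFY family, which bind the motif CCAAT, and of the Sp family, which bind the motif GGGCGG, and the promoters were searched for these letters on both strands, with no overlap between the motifs. RefSeq promoter windows of 300 bases (250 before to 50 after a transcript start, GRCm38.p6) matched 8 of the 10 genes in 15 windows, with none for *H19* or *Cdkn1c*. CCAAT was found in 3 of the 15 windows, belonging to *Igf2*, *Meg3* and *Peg3*, against 37.4% of all 32851 windows. GGGCGG was found in 8 of the 15, against 35.7% of all windows, but *Mest* has 3 windows, 2 of which start 3 bases apart and hold the same match, so 1 site was counted in both. The window of *Peg3*, which was lower in KO hearts, and the second window of *Mest*, the member with the largest increase, are shown with both motifs in capitals on either strand (ATTGG is CCAAT read from the other strand). They lie at chr7:6730370-6730669 (minus strand) and chr6:30737800-30738099 (plus strand).
Peg3: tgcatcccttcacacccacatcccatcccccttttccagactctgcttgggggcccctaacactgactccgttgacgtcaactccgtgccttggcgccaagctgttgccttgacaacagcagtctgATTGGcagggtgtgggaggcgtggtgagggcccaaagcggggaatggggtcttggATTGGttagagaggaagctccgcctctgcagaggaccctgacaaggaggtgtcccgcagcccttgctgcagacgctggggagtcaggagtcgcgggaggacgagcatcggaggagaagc
Mest: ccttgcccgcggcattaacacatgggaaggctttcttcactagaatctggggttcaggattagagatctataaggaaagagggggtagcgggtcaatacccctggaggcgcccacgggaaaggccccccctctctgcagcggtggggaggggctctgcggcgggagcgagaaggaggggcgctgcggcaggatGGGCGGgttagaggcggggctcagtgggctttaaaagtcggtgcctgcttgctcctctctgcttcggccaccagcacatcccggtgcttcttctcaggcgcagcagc
The *Peg3* window holds 2 CCAAT motifs and no GGGCGG, and the *Mest* window shown holds 1 GGGCGG and no CCAAT. *Igf2* and *Meg3*, which also hold CCAAT, did not pass the threshold for a change in KO hearts. A match is a description of the letters and not a binding site. The 15 windows hold a median of 13 CpG pairs (1 to 45), the dinucleotide that carries the methylation of imprinted control regions, against a median of 7 over all windows. They come from 8 genes, and 2 windows of *Mest* are nearly the same, so they are not 15 separate values. The windows were taken by transcript start and not by control region, and methylation was not measured.

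The libraries held 15567624 to 19875546 counts, and levels are given as CPM, counts scaled to a common library size after edgeR's TMM scaling, on which 3 counts, taken as the limit of detection, are 0.153 to 0.197 CPM. *Pkm*, the targeted gene, measured 1318 ± 41.1 CPM in the WT libraries and fell to 542 ± 10.1 CPM in the KO libraries (mean ± SD, n = 3 each). Cardiomyocyte markers were abundant in every library, with 140616 to 144429 CPM in all in WT and 133538 to 134723 CPM in KO for the 12 listed. The libraries were called a to c within a group in the order of their columns, which carry no replicate number. WT c stood apart from the other WT libraries: its counts differed from those of WT a and WT b by a chi-square of 3.76 and 3.24 per degree of freedom, against 1.56 between WT a and WT b and 1.62 to 1.88 among the KO libraries. All KO libraries had *Xist*, the RNA of the inactive X (2237 to 2332 CPM, against 4.80 to 5.79 in WT), and 0 counts of *Ddx3y*, *Uty*, *Eif2s3y* and *Kdm5d* of the Y, so sex and genotype cannot be told apart for any result here. The study calls the libraries biological replicates, and p-values measure the spread between them, which was small (biological coefficient of variation 3.42% over all genes).

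The growth genes spanned a wide range of abundance in the fetal heart. Of 13804 genes tested, *Igf2* ranked 17th by mean CPM, *H19* 20th, *Igf2r* 22nd and *Grb10* 37th. *Mest* ranked 102nd, *Plagl1* 182nd, *Peg3* 463rd, *Meg3* 638th, *Dlk1* 1755th and *Cdkn1c* 2194th. Together the 10 genes took 1.08% to 1.12% of all counts in WT and 1.12% to 1.14% in KO libraries. Since longer transcripts give more reads, levels were compared between genes as CPM per kb of annotated exon. On this scale *H19* was highest, at 1071 ± 74.4 in WT and 962 ± 21.8 in KO hearts (SD, n = 3 each). *Igf2*, the fetal insulin-like growth factor, followed at 480 ± 25.5 in WT and 463 ± 6.31 in KO, and its receptor *Igf2r* at 245 ± 2.53 and 263 ± 0.580. By exon length *Grb10* and *Mest* exchanged places: *Grb10* was above *Mest* in WT (175 ± 0.815 against 166 ± 2.46) and below it in KO (184 ± 3.10 against 200 ± 0.747). *Plagl1* and *Cdkn1c* came next, at 65.7 ± 1.86 and 43.0 ± 3.52 in WT. *Peg3* (22.0 ± 0.408 in WT) and *Dlk1* (17.6 ± 0.836) also exchanged places in KO hearts, where they were at 19.7 ± 0.0857 and 20.05 ± 1.12 and their libraries overlapped. *Meg3* was lowest, at 12.7 ± 0.738 in WT and 12.3 ± 0.286 in KO. Apart from *Peg3* and *Dlk1* in KO, no neighbours in this order overlapped within a genotype. The order depends on the length used: per kb of the longest annotated transcript, *Grb10* stood above *Mest* in both WT (314 ± 1.46 against 246 ± 3.65) and KO hearts (330 ± 5.57 against 295 ± 1.11), *Peg3* stood above *Dlk1* in both, and *Igf2r* was below *Grb10*, and in KO also below *Mest* (275 ± 0.607 against 295 ± 1.11).

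**Figure D1:**
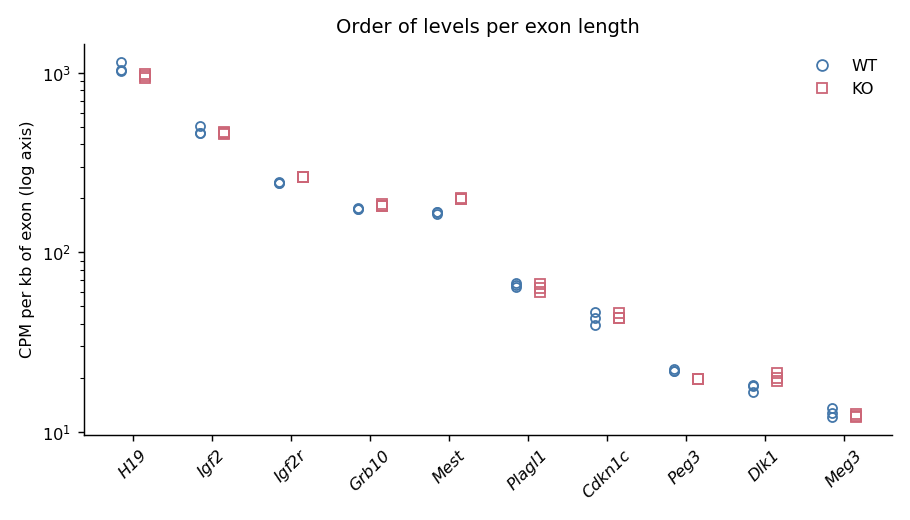
Level of each gene per exon length (CPM per kb of annotated exon, log axis), with circles for the 3 WT and squares for the 3 KO libraries. In KO hearts the levels run from 962 for *H19* to 12.3 for *Meg3*, and the places of *Grb10* and *Mest*, and of *Peg3* and *Dlk1*, differ between WT and KO on this exon scale.

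When KO hearts were compared with WT hearts, 4 of the 10 genes were higher and 2 were lower. *Mest*, *Dlk1*, *Igf2r* and *Grb10* rose by 4.95% to 20.1%, and *H19* and *Peg3* fell by 10.3% and 10.4%. *Igf2*, *Meg3*, *Cdkn1c* and *Plagl1* did not pass the threshold. A gene was called when its quasi-likelihood p in edgeR, adjusted by Benjamini-Hochberg across every gene tested, was under 0.05. By the same rule 30.3% of all 13804 genes were called, 14.6% higher and 15.7% lower, and among the 2492 genes averaging 80 CPM or more, a range that holds all 10 members, 43.7% were called. The WT and KO libraries did not overlap for the same 6 members that were called, against 42.4% of all genes. The median log2 fold change of the 10 genes was -0.0081, beside 0.0017 for all genes. Each parental class held genes that rose and genes that fell: 2 of the 5 paternally expressed genes were higher and 1 lower, and the same counts held for the 5 maternally expressed genes. The summed level of the 10 genes was 10933 to 11502 CPM in WT and 11041 to 11195 CPM in KO libraries, so the groups overlapped. In bulk tissue, fewer cells of a type that expresses a gene and less RNA per cell cannot be told apart.

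**Figure D2:**
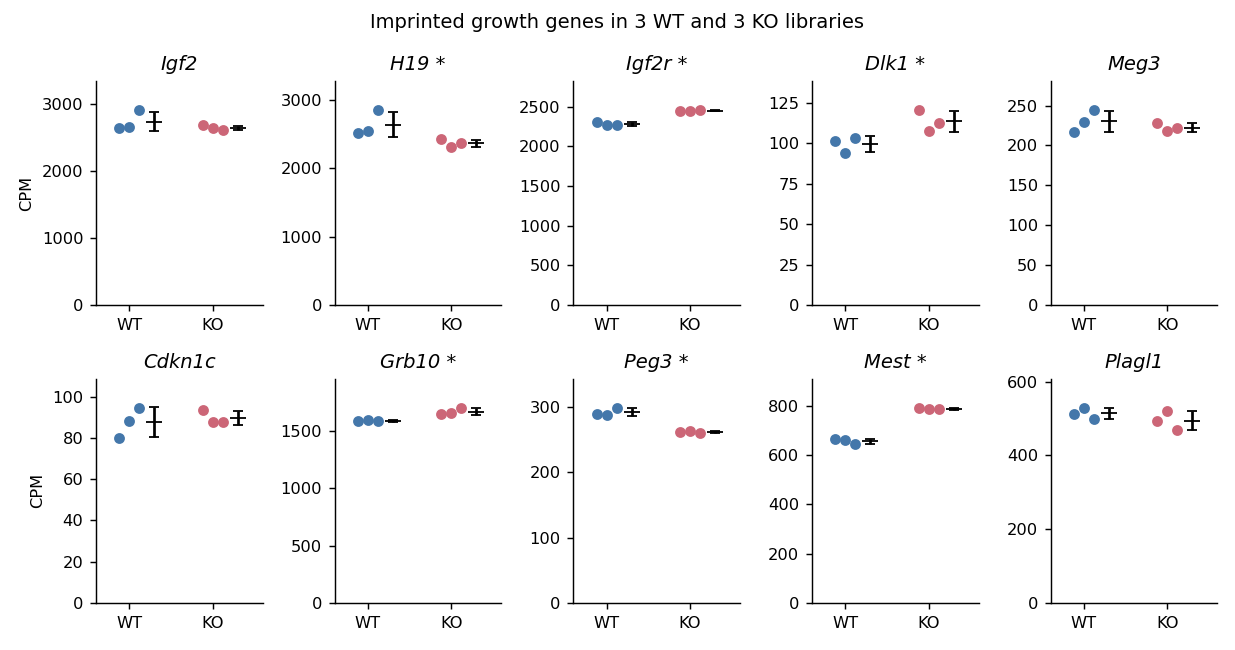
CPM of each gene in the 3 WT (blue) and 3 KO (red) libraries, with the mean and SD beside the points, every axis starting at 0. An asterisk marks the 6 genes past the threshold, whose WT and KO points do not overlap, and the differences are small beside the levels themselves.

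Among the paternally expressed genes, *Mest* changed most. It encodes a protein with the fold of an alpha/beta hydrolase and takes its name, mesoderm-specific transcript, from its embryonic expression. *Mest* was at 664, 659 and 645 CPM in WT a, b and c and at 791, 785 and 786 CPM in KO a, b and c. Every KO library lay above every WT library, and the spread within each group was small, with coefficients of variation of 1.48% in WT and 0.374% in KO. The log2 fold change was 0.26 (SE 0.0252, the standard error, with an edgeR adjusted p = 6.03e-09), a rise of 20.1%. With each library left out in turn it stayed between 0.25 and 0.27.

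*Dlk1*, a Delta-like protein that acts outside the usual Notch ligands and marks immature cells of many fetal tissues, was also higher. Its levels were 101, 94.1 and 103 CPM in WT a to c and 120, 108 and 112 CPM in KO a to c. The lowest KO library, KO b, was close to the highest WT library, WT c, without overlap. On the log2 scale *Dlk1* rose by 0.19 (SE 0.0454 and adjusted p = 0.00191), a rise of 14.0%, and it ranged from 0.15 to 0.23 with 1 library left out.

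*Peg3* encodes a zinc finger DNA-binding protein and moved the other way. It was at 290, 289 and 299 CPM in WT a to c and at 262, 263 and 261 CPM in KO a to c. The KO libraries were nearly equal, with a coefficient of variation of 0.435%, and all lay below the WT libraries. On the log2 scale *Peg3* changed by -0.16 (SE 0.0306 and adjusted p = 2.60e-04).

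*Igf2* itself, the ligand that drives growth through the receptors IGF1R and INSR, did not pass the threshold. Its levels were 2653, 2667 and 2913 CPM in WT a to c and 2686, 2647 and 2614 CPM in KO a to c. The groups overlapped, and WT c was the only library far from the others. The log2 fold change was -0.051 with a 95% interval of -0.11 to 0.0038 (adjusted p = 0.153), and it was -0.0074 without WT c and -0.076 without WT a, where the adjusted p was 0.0356.

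*Plagl1*, a zinc finger factor that binds other imprinted genes of this set, overlapped too, at 514, 529 and 500 CPM in WT a to c and 494, 520 and 468 CPM in KO a to c. Its log2 fold change was -0.058, with a 95% interval of -0.13 to 0.0092 (adjusted p = 0.185). KO c was lowest and WT b highest, with the other libraries between. Without WT c the adjusted p was 0.0124 at a log2 fold change of -0.080, and in no other setting tried did *Plagl1* pass. It was -0.021 without KO c, -0.039 without WT b, -0.095 without KO b and -0.010 with library totals in place of TMM.

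Of the maternally expressed genes, *H19* was lower in KO hearts. This noncoding RNA is read from the chromosome that keeps *Igf2* silent. *H19* was at 2513, 2548 and 2846 CPM in WT a to c and at 2421, 2314 and 2361 CPM in KO a to c. The KO libraries all lay below the WT libraries, and WT c again stood above WT a and WT b. On the log2 scale the change was -0.16 (SE 0.0310 and adjusted p = 3.49e-04), and without WT c it was -0.099 (adjusted p = 5.50e-06).

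*Igf2r*, the receptor that carries IGF2 to the lysosome for breakdown and so limits growth, was higher. It was at 2312, 2271 and 2272 CPM in WT a to c and at 2446, 2444 and 2454 CPM in KO a to c. The KO libraries differed by less than WT libraries among themselves, with a coefficient of variation of 0.220%. *Igf2r* thus differed by 0.10 log2 units (SE 0.0204 and adjusted p = 5.01e-04), a rise of 7.15%.

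*Grb10*, an adaptor that binds the insulin and IGF receptors and dampens their signal, had the smallest change that passed. Its levels were 1588, 1599 and 1586 CPM in WT a to c and 1652, 1654 and 1702 CPM in KO a to c. The groups did not overlap, and KO c was the highest library. Its difference was 0.070 log2 units (SE 0.0222 and adjusted p = 0.0185), and the call was lost without KO c (adjusted p = 0.109), without WT b (0.0566), with DESeq2 (0.0634) and with edgeR's likelihood ratio test (0.0664).

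*Cdkn1c*, which encodes the cyclin-dependent kinase inhibitor p57, had the widest spread among WT libraries. It was at 80.3, 88.1 and 94.6 CPM in WT a to c and at 93.4, 87.7 and 87.6 CPM in KO a to c. All KO values fell within the WT range, and the log2 fold change of 0.033 had a 95% interval of -0.070 to 0.14 (adjusted p = 0.657). Without WT a it was -0.027.

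*Meg3*, the noncoding RNA of the maternal *Dlk1* domain, was at 217, 230 and 244 CPM in WT a to c and at 228, 218 and 221 CPM in KO a to c. All KO values again lay within the WT range. Its log2 fold change was -0.050, with a 95% interval of -0.13 to 0.027 (adjusted p = 0.336). It was -0.0092 without WT c, -0.091 without WT a and -0.0017 with library totals, and passed in none of these fits.

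**Figure D3:**
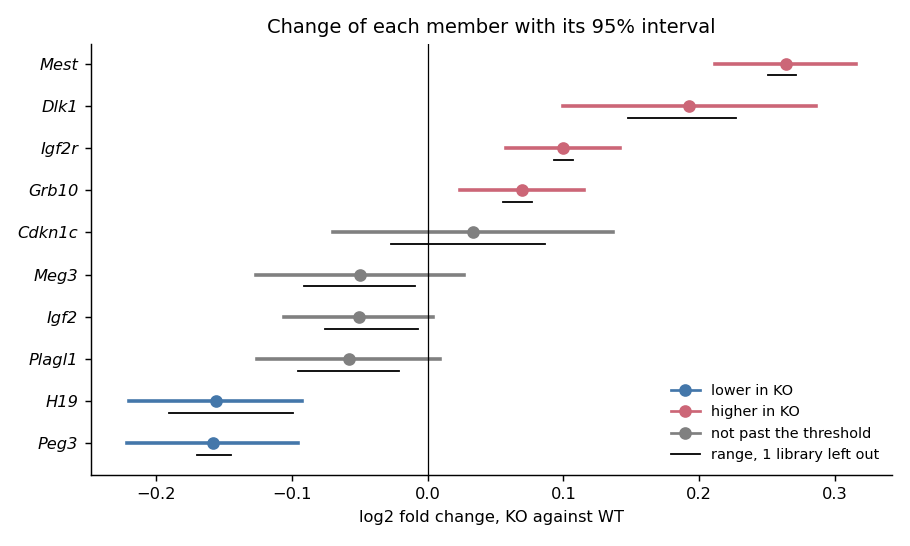
Log2 fold change of each gene, KO against WT, with its 95% interval as a coloured line, and below it in black the range when 1 library is left out. *Mest* lies highest at 0.26 and *Peg3* and *H19* lowest at -0.16, and the intervals of *Cdkn1c*, *Meg3*, *Igf2* and *Plagl1* reach across 0.

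A ratio of 2 genes within a library needs no scaling between libraries, and 5 such ratios were compared by an exact two-sided permutation test over libraries, whose smallest possible p with 3 against 3 is 0.1. Each of the 5 reached that exact permutation p = 0.1 (adjusted p = 0.1 over the 5 ratios), so none could pass 0.05, and WT and KO libraries did not overlap in any of them. Single genes without overlap made up 42.4% of all tested, and the share among ratios of other gene pairs was not computed. All but *Dlk1* to *Meg3* share *Igf2*, so the 5 are not separate results. The log2 ratio of *Igf2* to *H19* counts was 0.078, 0.066 and 0.033 in WT a to c and 0.15, 0.19 and 0.15 in KO a to c. The ratio of counts was thus higher in KO hearts by 0.10 on the log2 scale. These counts are not corrected for length. Per kb of exon, *H19* stood above *Igf2* in both genotypes (1071 against 480 in WT and 962 against 463 in KO).

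The log2 ratio of *Igf2* to *Igf2r*, the ligand to the receptor that removes it, was 0.20, 0.23 and 0.36 in WT a to c and 0.14, 0.12 and 0.091 in KO a to c. It was lower in KO by a difference of -0.15, and of -0.10 without WT c. *Igf2* to *Grb10* had a difference of -0.12, which was -0.073 without WT c. *Igf2* to *Cdkn1c* had a difference of -0.083, which was -0.045 without WT a. The groups nearly touched for this ratio, with 4.919 in WT b, the lowest WT library, and 4.914 in KO b, the highest KO library. *Dlk1* to *Meg3* differed most, with log2 ratios of -1.10, -1.29 and -1.24 in WT a to c and -0.92, -1.02 and -0.98 in KO a to c, a difference of 0.24.

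**Figure D4:**
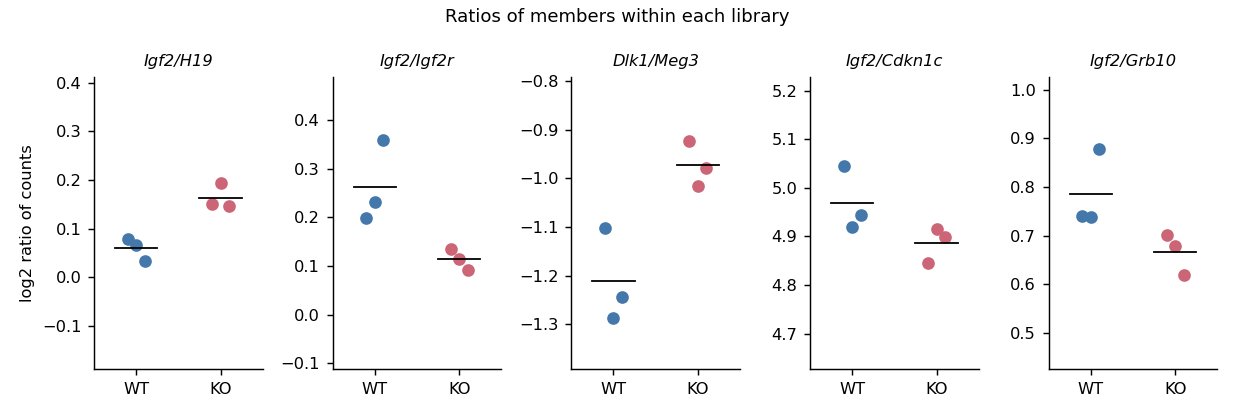
Log2 ratio of the counts of 2 genes within each library, with points for libraries and a line for the group mean, each panel spanning 0.6 log2 units. *Igf2/H19* and *Dlk1/Meg3* lie higher in KO, and the ratios of *Igf2* to *Igf2r*, *Cdkn1c* and *Grb10* lie lower, with no overlap between the groups. The groups of *Igf2/Cdkn1c* nearly touch.

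The neighbours that share an imprinted domain with a member did not always move with it. At the *Igf2r* locus, *Airn*, the paternal noncoding RNA that runs antisense through *Igf2r* and silences it on that chromosome, was at 85.5, 87.8 and 87.5 CPM in WT a to c and at 120, 114 and 123 CPM in KO a to c. It rose by 36.8% (log2 fold change 0.45, SE 0.0417 and adjusted p = 2.80e-09), beside the rise of 7.15% in *Igf2r*. The span of *Airn* covers 519 exon bases of *Igf2r* on the opposite strand. The strand setting of the counting is not given in the sources used here, so reads from overlapping genes on opposite strands cannot be told apart. The same limit holds for 475 exon bases of *Igf2* inside *Igf2os*, 882 of *Cdkn1c* inside *Gm44732* 3096 of *Meg3* inside *Gm26906* and 912 of *Mest* inside *Copg2*, and *Gm49394*, annotated on the same strand, covers 5720 exon bases of *Igf2*, so the counts of these members are uncertain to that extent.

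At the *Dlk1* locus the maternal noncoding RNA *Rian*, a host of small nucleolar RNAs and microRNAs downstream of *Meg3*, was at 101, 95.2 and 82.5 CPM in WT a to c and at 120, 123 and 125 CPM in KO a to c. *Rian* rose by 0.40 log2 units (SE 0.0504 and adjusted p = 7.05e-07), while that of *Meg3* was -0.050. The log2 ratio of *Rian* to *Meg3* ranged from -1.56 to -1.11 in WT and from -0.93 to -0.82 in KO libraries, a description of values seen before this ratio was chosen. *Mirg*, further downstream, had a log2 fold change of 0.35 (SE 0.155 and adjusted p = 0.0933, or 0.0358 at 0.51 without WT b), and *Rtl1*, a retrotransposon-derived paternal gene, 0.027 (adjusted p = 0.879).

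In the domain of *Cdkn1c*, the long paternal RNA *Kcnq1ot1*, which silences that domain, was at 846, 827 and 760 CPM in WT a to c and at 873, 916 and 887 CPM in KO a to c. It rose by 0.14 log2 units (adjusted p = 0.00139), and the potassium channel gene *Kcnq1*, whose body it crosses, had a log2 fold change of 0.014 (adjusted p = 0.869). *Igf2os*, antisense to *Igf2*, had a log2 fold change of -0.046 (adjusted p = 0.712). *Usp29*, which shares the control region of *Peg3* and runs away from it, had one of -0.35 at 3.17 to 4.98 CPM (adjusted p = 0.105, or 0.0468 at -0.49 without KO b). *Copg2*, whose last 912 bases overlap *Mest* on the opposite strand, had one of 0.016 (adjusted p = 0.820), beside 0.26 for *Mest*. Of the other neighbours listed, *Ins2*, *Dio3*, *Phlda2*, *Nctc1* and *Th* were not among the 13804 genes tested. They were either absent from the count table under these symbols or left out by the filter on low counts, and have no values here.

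**Figure D5:**
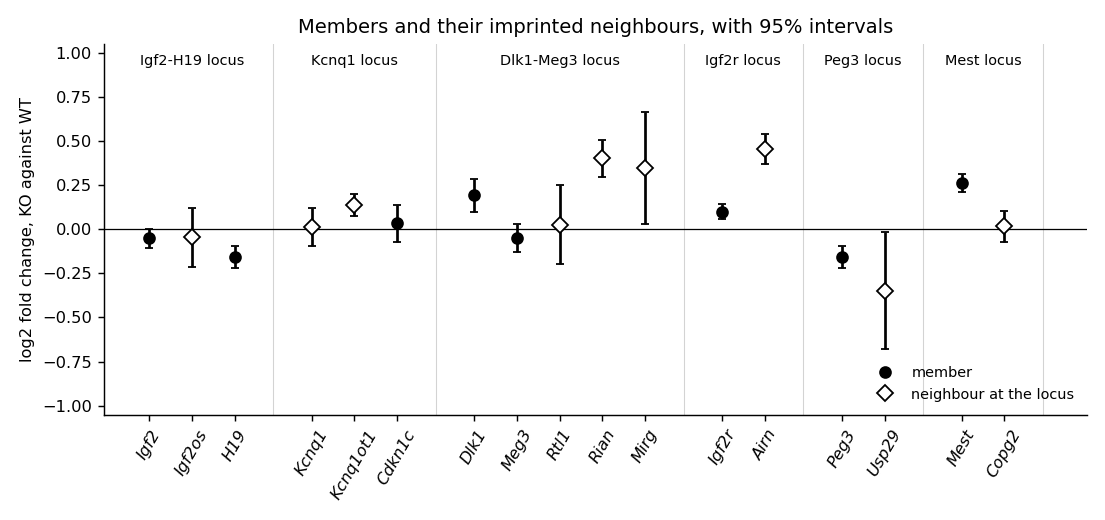
Log2 fold change, KO against WT, with 95% intervals, of the members (filled circles) and the imprinted neighbours at the same locus (open diamonds). *Airn* at 0.45 and *Rian* at 0.40 lie well above *Igf2r* and *Meg3*, and *Copg2* lies near 0 beside *Mest*.

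Imprinted genes outside the 10 were counted from 2 lists. The parental class is that of the list and need not hold in every tissue or for every transcript of a gene. The copy used in these hearts was not measured. Of 21 tested genes listed as paternally expressed, 4 were higher and 6 lower, beside 14.6% and 15.7% of all genes. Their median log2 fold change was -0.015. The largest changes were in low genes: *Magel2*, a MAGE family gene of the Prader-Willi region, went from 1.99 ± 0.606 to 4.83 ± 0.738 CPM (SD, n = 3 each, log2 fold change 1.26), and *Nap1l5*, a gene related to nucleosome assembly proteins, from 9.98 ± 0.548 to 4.29 ± 0.142 CPM (-1.22). *Peg13*, a noncoding RNA, fell from 39.0 ± 0.108 to 30.9 ± 1.11 CPM (-0.33). Of 17 tested genes listed as maternally expressed, 2 were higher (1 without KO a) and 1 lower, with a median of 0.053. Besides *Rian* these were *Ampd3*, an AMP deaminase, with a log2 fold change of 0.20 (adjusted p = 0.00916, but 0.0705 without WT b and 0.0665 without KO a), and *Dcn*, the matrix proteoglycan decorin, with -0.12 (adjusted p = 0.0191), a call lost without WT a, WT b, KO b or KO c (adjusted p of 0.0586 to 0.0936) and with DESeq2. The remaining 14 of the 17 did not pass.

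The IGF pathway in which *Igf2*, *Igf2r* and *Grb10* act was followed through 29 tested genes, with a median log2 fold change of -0.032. Of the 29, 7 were higher (3 without KO c) and 8 lower, beside 14.6% and 15.7% of all genes. The smallest adjusted p-values belonged to *Irs2* and *Irs1*, adaptors that pass the signal on from the receptors. *Irs2* was at 125, 125 and 123 CPM in WT a to c and at 31.7, 30.6 and 33.7 CPM in KO a to c, a change of -1.95 on the log2 scale (SE 0.0481 and adjusted p = 5.53e-22). *Irs1* fell from 278 ± 1.09 to 202 ± 3.13 CPM (SD, n = 3 each, log2 fold change -0.46). No library of either adaptor overlapped between the groups, as was so for 42.4% of all genes.

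*Igf2bp1*, a fetal RNA-binding protein named for its binding to *Igf2* messages, rose from 50.9 ± 1.46 to 76.8 ± 3.34 CPM (log2 fold change 0.59, adjusted p = 4.30e-10). *Igfbp5*, a secreted IGF-binding protein, fell from 406 ± 7.10 to 351 ± 1.92 CPM (log2 fold change -0.21). *Igf1r*, the receptor that carries the IGF2 signal, measured 338 ± 4.18 CPM in WT hearts and 340 ± 5.78 CPM in KO hearts (log2 fold change 0.0063, adjusted p = 0.896), and *Igf1*, the ligand that takes over after birth, fell from 48.1 ± 1.89 to 40.7 ± 1.83 CPM (-0.24, adjusted p = 0.00148). *Igf1r* and *Igf1* were named for their roles after their values were seen.

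Of 22 genes whose products keep imprints or shape their chromatin, 3 were higher and 3 lower, beside 14.6% and 15.7% of all genes, with a median log2 fold change of -0.0051. With any 1 library left out 2 were higher, and 5 were lower without WT c and 1 without KO c. *Tet1*, an enzyme that oxidizes methylated cytosine, was at 107, 109 and 103 CPM in WT a to c and at 141, 142 and 138 CPM in KO a to c (log2 fold change 0.40, adjusted p = 6.74e-09). *Setdb1*, a histone H3 lysine methyltransferase used at imprinted regions, had a log2 fold change of 0.30, *Arid4a* one of -0.22 and the remodeller *Atrx* one of -0.12, a call lost without KO c (adjusted p = 0.0699) and with library totals (0.0824). Among other cell cycle inhibitors beside *Cdkn1c*, 4 of 5 tested genes were lower and none was higher, beside 15.7% lower and 14.6% higher of all genes. They were *Cdkn1a* (p21) at -0.57, *Cdkn3*, a phosphatase of cyclin-dependent kinases, at -0.38 (not called without KO c, adjusted p = 0.101), *Cdkn2c* (p18) at -0.31 and *Cdkn1b* (p27) at -0.21 on the log2 scale. The other tested gene of this short list did not pass. At an unadjusted p under 0.05, 5623 of all 13804 genes passed.

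Markers of the cell types that the tissue can hold moved as well, and their part in the changes of the growth genes was not tested. The counts below stand beside 14.6% higher and 15.7% lower of all genes. Among genes averaging 80 CPM or more, 43.7% were called. Of 8 epicardial markers 4 were higher and none lower, with a summed level of 156 to 159 CPM in WT and 174 to 186 CPM in KO libraries. Of 10 fibroblast markers 4 were lower and none higher (3936 to 3971 CPM in WT, 3653 to 3725 in KO). Cardiomyocyte markers were lower in 8 and higher in 2 of 12, endothelial markers lower in 3 and higher in 2 of 10 (1596 to 1605 CPM in WT, 1572 to 1608 in KO), and smooth muscle and pericyte markers lower in 4 and higher in 1 of 9 (1457 to 1481 and 1385 to 1395 CPM). Atrial markers were higher in 3 of 7 tested (618 to 624 CPM in WT, 1029 to 1053 in KO), and those 3 made up most of the sums. The other 4 did not pass, with log2 fold changes of -0.23 to 0.059, so the list did not move as a whole. Leukocyte markers were lower in 2 of 10 (47.3 to 50.1 and 43.5 to 50.0 CPM), and of 3 erythroid markers tested 1 was lower and 1 higher (33.5 to 35.5 and 35.8 to 43.0 CPM). No tested marker of these lists was at 0 in either group. Among 9 sex-linked genes all were called, 5 higher and 4 lower, and when all 481 genes on X and Y were left out of the fit the calls of the 10 growth genes did not change. None of the 10 lies on X or Y, so that refit cannot separate sex from genotype.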

How the data were processed

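Ribosomal RNA-depleted total RNA of WT and KO hearts was sequenced with paired ends, in 3 libraries per genotype. Per the labels and methods, the authors trimmed reads with cutadapt 1.18, aligned them to mm10 with HISAT2 and used StringTie; the counting program, its strand setting and the filter behind the 13809 genes are not given in the sources used here. They deposited raw counts per gene symbol beside their own edgeR fold changes, p-values and false discovery rates, which were not used. Columns name the genotype only.

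From these counts, edgeR 4.0.16 in R 4.3.3 gave the main test (filterByExpr, 13804 genes kept and 5 left out; TMM; quasi-likelihood test, genotype only; Benjamini-Hochberg adjustment, threshold 0.05). Standard errors are the log2 fold change divided by the root of the F statistic. CPM per kb used the union of GENCODE M21 exons. Ratios used log2 of counts plus 1. The tests were tried on simulated counts. Figures were drawn with matplotlib 3.10.9.

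The genes named are the 10 members, their listed locus neighbours, and up to 4 genes per list with the smallest adjusted p (past the threshold, averaging 1 CPM or more, and without overlap between groups). The members and lists were chosen with earlier results of these data known. Alternatives were other scalings, filters and tests (DESeq2 1.42.0, limma 3.58.1 voom), genes on X and Y left out, WT a and WT b summed, and each library left out.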

Additional observations from a re-analysis of the deposited data

How the results depend on the processing

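Under 18 alternative settings *Mest*, *Dlk1*, *Igf2r*, *H19* and *Peg3* kept their direction and their call, and *Grb10* lost its call in 4. *Igf2* (adjusted p = 0.0356 without WT a) and *Plagl1* (0.0124 without WT c) passed in 1 setting each, as did the neighbours *Mirg* (0.0358 without WT b) and *Usp29* (0.0468 without KO b), all by edgeR's quasi-likelihood test. With 1 library left out, 2 to 3 members were lower and 3 to 4 higher, and over all genes 1704 to 2306 were lower and 1479 to 2013 higher. The lists of related genes together had 10 to 16 higher genes with 1 library left out, lowest without KO c, against 16 with all libraries. No paired analysis was possible because a column shows its genotype but not its replicate number.

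Library totals in place of TMM moved the all-gene median of the log2 fold change from 0.0017 to 0.049, and with it *Grb10* to 0.12. Among members that were not called it moved *Igf2* to -0.0026, *Meg3* to -0.0017 and *Plagl1* to -0.010, and it turned *Igf2os*, not called, to 0.0020. Directions without a call also reversed with 1 library left out for *Cdkn1c* (-0.027 to 0.086), *Rtl1* (-0.045 to 0.136), *Kcnq1* (-0.046 to 0.045) and *Copg2* (-0.012 to 0.063). The cause was not tested. Of the listed genes named, *Dcn* lost its call in 7 settings, *Ampd3* in 2, *Atrx* in 2 and *Cdkn3* in 1. Every member had at least 1386 counts in every library. Per kb of the longest transcript, the order of *Igf2r*, *Grb10* and *Mest* changed.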
